A study of Homo sapiens with 12 samples.

Results

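The genes described here were 9 interferon-induced genes, IFITM1, IFITM2, IFITM3, IFI16, IFI6, ISG15, IFIT1, IRF1 and IRF9, out of 60658 rows in the authors' expression table of K-562 cells. All 9 were present in the table, and 8 passed the filter on low values, IFIT1 being the exception. IFITM1, IFITM2, IFITM3 and IFI16 were chosen by their FPKM levels and changes in these same libraries, so those 4 genes are described with no test. The other 5 were added to ask whether their pattern belonged to a wider shift of interferon-induced genes, and 4 of them were tested. K-562 is a human erythroleukemia cell line. Every library came from K-562 cells carrying a stable construct, and RNA was taken 24 hours after siRNA transfection. D152V_Rescue cells expressed 3xTY-D152V, a tagged MYB named for its D152V change, and received the siRNA si2992. MYB-WT_Rescue cells expressed 3xTY-hcM and received the same siRNA. MYB_KnockDown cells expressed 3xTY1, the tag construct, and also received si2992. siRNA_Control cells expressed 3xTY1 and received a non-targeting siGENOME siRNA. Each group had 3 libraries, and the series' design text calls the replicates individual experiments. Since each rescue was its own stable line, the effect of the MYB it expressed and any other difference between the lines cannot be told apart, and the number of clones in a line was not given in the sources used here.

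Type I and type III interferons signal through cell surface receptors and the JAK kinases to a complex that contains STAT2 and IRF9 and binds the interferon-stimulated response element (ISRE) in promoters. Interferon gamma acts through IFNGR1 and IFNGR2 on promoters with gamma-activated sites (GAS), and IRF1 is among its early targets. The IFITM proteins are small membrane proteins that hinder the entry of enveloped viruses into cells. IFI16 belongs to the PYHIN family of DNA-binding proteins and takes part in sensing foreign DNA. MYB is a transcription factor of immature blood cells on which leukemia cells often depend.

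The levels of IFITM2, IFITM3 and IFI16 differed in opposite directions in the rescue lines, so the sequences in front of their starts are shown with that of ISG15, a standard ISRE target. Each stretch holds 190 bases before the annotated start and the first 10 bases of the transcript, 5′ to 3′ along the gene, from RefSeq on GRCh38.p14. Capitals mark each match to the ISRE core, written GAAANNGAAA and searched on both strands. IFITM3 is on the minus strand and the stretch is chr11:320851-321050. IFITM1 is on the plus strand at chr11:313850-314049 and ISG15 on the plus strand at chr1:1013307-1013506. The 2 IFI16 starts with a window are on the plus strand, at chr1:159008801-159009000 and chr1:159009717-159009916. The annotated IFI16 interval begins upstream of both, at chr1:158999976, and no window there was searched.
IFITM3: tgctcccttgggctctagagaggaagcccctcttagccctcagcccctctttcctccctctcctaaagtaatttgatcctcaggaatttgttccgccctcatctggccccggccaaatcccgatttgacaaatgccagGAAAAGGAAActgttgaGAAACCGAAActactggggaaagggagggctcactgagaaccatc
IFITM1: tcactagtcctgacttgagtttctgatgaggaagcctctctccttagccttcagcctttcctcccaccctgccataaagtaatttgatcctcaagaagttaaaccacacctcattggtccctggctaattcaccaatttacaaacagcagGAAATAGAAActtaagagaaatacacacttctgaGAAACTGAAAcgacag
ISG15: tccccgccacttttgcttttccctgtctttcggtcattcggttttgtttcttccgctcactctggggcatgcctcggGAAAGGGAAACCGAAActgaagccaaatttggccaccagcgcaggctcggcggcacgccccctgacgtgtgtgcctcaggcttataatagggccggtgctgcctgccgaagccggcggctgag
IFI16 at the first start: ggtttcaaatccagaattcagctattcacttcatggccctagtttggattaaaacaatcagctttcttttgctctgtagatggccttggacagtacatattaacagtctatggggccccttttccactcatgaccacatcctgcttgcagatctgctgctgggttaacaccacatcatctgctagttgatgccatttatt
IFI16 at the other start: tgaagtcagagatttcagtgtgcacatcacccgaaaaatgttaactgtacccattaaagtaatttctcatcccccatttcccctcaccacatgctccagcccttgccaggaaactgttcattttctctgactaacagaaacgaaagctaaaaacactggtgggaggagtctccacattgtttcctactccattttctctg
In the window searched, 250 bases before to 50 after the start, IFITM3, IFITM1 and ISG15 each held 2 ISRE core matches and neither IFI16 window held one. IFI6 held 3 matches and IFIT1 held 2, while IRF1 and IRF9 held none. A window for IFITM2 was not analysed here. The ISRE core occurred in 4.376% of 27305 genes with a RefSeq window and in 40 of the 61 listed interferon-stimulated genes that had one. The GAS core TTCNNNGAA occurred in the windows of IFITM1, IRF1 and IRF9 among the members, against 9.376% of all genes. The short MYB core AACNG occurred in 80.546% of all genes, and so separates little. These matches describe letters in a window and say nothing of binding in these cells.

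The MYB row checked the labels. MYB averaged 91.0 ± 8.11 FPKM in D152V rescue, 124 ± 8.87 in MYB-WT rescue, 30.2 ± 3.58 in knockdown and 120.1 ± 14.2 in siRNA control cells (SD, n = 3 each). It was lower in knockdown than in control cells (log2 change -1.96, SE 0.13, adjusted p = 3.03e-05) and lower in D152V rescue than in MYB-WT rescue cells (log2 change -0.44, SE 0.13, adjusted p = 0.0494). The first call held in every alternative, and the other was lost in 17 of 20 with adjusted p up to 0.164. Tagged and endogenous transcripts cannot be separated on this row. Library totals ranged from 672616 to 798362 FPKM in 11 libraries, and MYB_KnockDown replicate 1 stood apart at 1215578. Its r was 0.93 with MYB_KnockDown replicate 2 and 0.929 with replicate 3, whereas every other within-group r was at least 0.983. Its deviations ran toward short transcripts (Spearman rho with length -0.42, against 0.37 and 0.39 in replicates 2 and 3), and the IFITM genes, IFI6 and ISG15 have short transcripts. All 17 erythroid and K-562 markers were expressed, with summed levels of 3038 to 4886 FPKM in D152V rescue, 1677 to 2705 in MYB-WT rescue, 2478 to 8950 in knockdown and 2038 to 3784 in control libraries. Of 10 monocyte and granulocyte markers, LYZ alone passed the filter and 1 was at 0 in every library. Their sum was 4.34 to 5.77 FPKM in D152V rescue, 11.7 to 14.9 in MYB-WT rescue, 10.7 to 30.1 in knockdown and 16.8 to 25.9 in control libraries. Of 10 lymphoid markers 4 passed the filter and 1 was at 0 throughout. The lymphoid sum was 85.3 to 125 FPKM in D152V rescue, 39.9 to 66.9 in MYB-WT rescue, 23.2 to 105.6 in knockdown and 21.2 to 28.2 in control libraries. Of 10 fibroblast and epithelial markers 6 passed the filter, with sums of 430.4 to 547.9 FPKM in D152V rescue, 481.8 to 508.7 in MYB-WT rescue, 699.2 to 2632 in knockdown and 547.4 to 626.1 in control libraries. The part of these marker differences in the results was not tested. In bulk RNA, fewer cells expressing a gene and less RNA per cell cannot be told apart.

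IFITM3 and IFITM2 were far lower in both rescue lines than in the lines carrying the tag construct alone, most of all in D152V rescue cells. IFITM1, which lies between them on chromosome 11, was lower in MYB-WT rescue cells and close to control in D152V rescue cells. IFITM3 was listed at 1.29, 1.61 and 1.72 FPKM in D152V rescue, 6.28, 6.92 and 6.71 in MYB-WT rescue, 87.6, 76.1 and 83.3 in knockdown, and 59.4, 74.3 and 79.7 in siRNA control libraries. Its groups formed 3 levels with no overlap, D152V rescue lowest, then MYB-WT rescue, then knockdown and control, whose ranges overlapped. As means, IFITM3 was 1.54 ± 0.226 FPKM in D152V rescue, 6.63 ± 0.329 FPKM in MYB-WT rescue, 82.3 ± 5.80 FPKM in knockdown and 71.1 ± 10.5 FPKM in control cells (SD, n = 3 each). D152V rescue thus held 2.17% and MYB-WT rescue 9.33% of the control level.

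**Figure D1:**
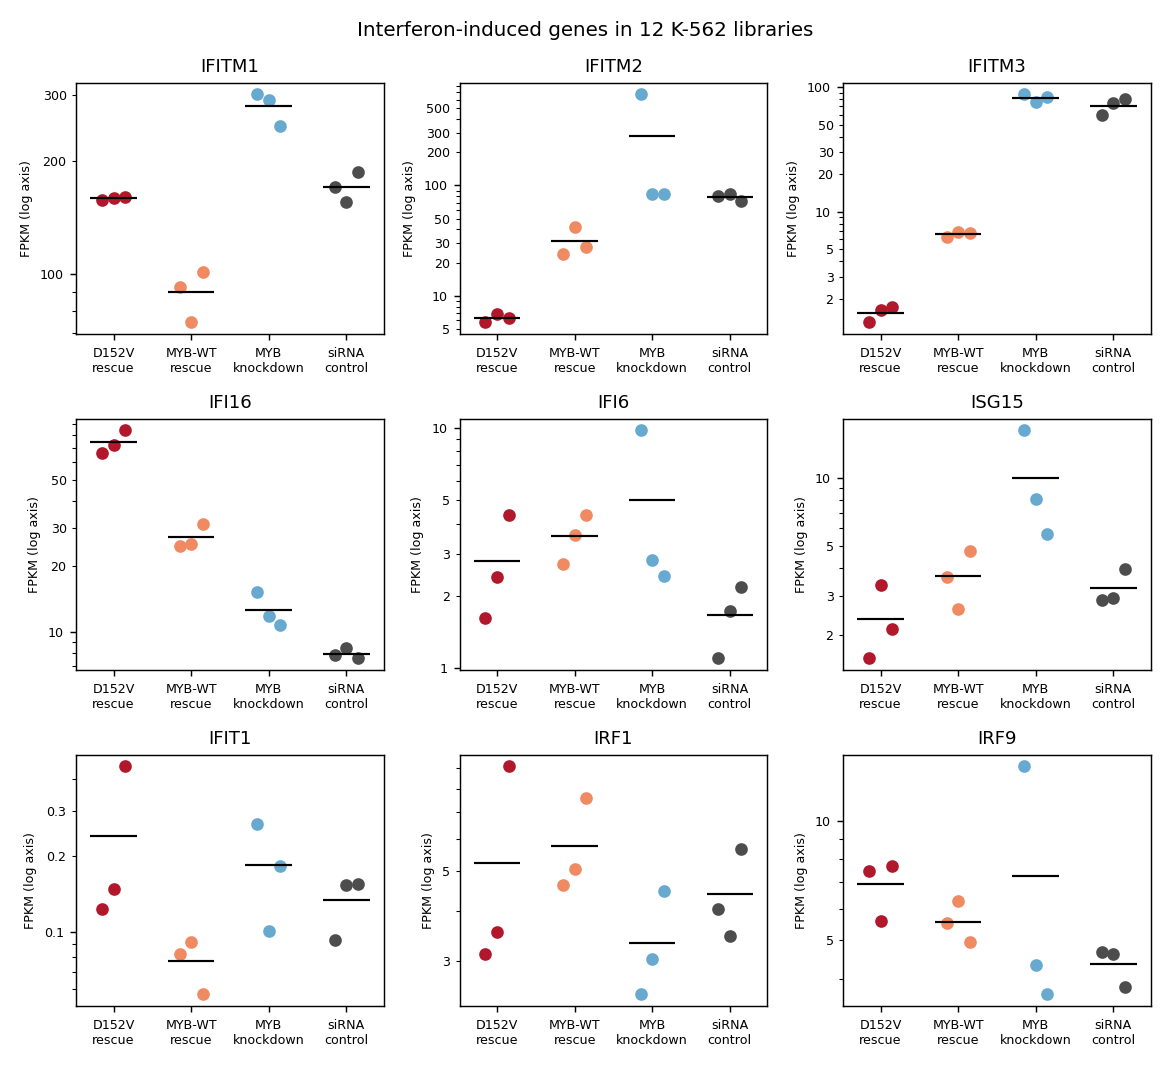
FPKM of the 9 interferon-induced genes in each of the 12 K-562 libraries on log axes, with groups from left to right D152V rescue, MYB-WT rescue, MYB knockdown and siRNA control. Points are libraries in replicate order and lines are group means. IFITM3 and IFITM2 descend toward the rescue lines and IFI16 ascends, while IFI6, IFIT1, IRF1 and IRF9 show no such order. MYB_KnockDown replicate 1 is the highest point for the 3 IFITM genes, IFI6, ISG15 and IRF9.

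IFITM2 was listed at 5.75, 6.87 and 6.34 FPKM in D152V rescue, 24.0, 41.9 and 27.9 in MYB-WT rescue, 669.6, 83.6 and 84.2 in knockdown, and 79.8, 84.1 and 72.4 in siRNA control libraries. The value of MYB_KnockDown replicate 1 lay far above the other 11 libraries, and the other knockdown libraries lay within or just beside the control range. IFITM2 averaged 6.32 ± 0.558 FPKM in D152V rescue and 31.2 ± 9.44 FPKM in MYB-WT rescue cells, against 78.8 ± 5.89 FPKM in control cells (SD, n = 3 each). The knockdown minus control log2 change of log2(FPKM + 1) was 1.09 with all libraries and 0.09 without MYB_KnockDown replicate 1. The D152V rescue minus knockdown change was -4.53 with all libraries and -3.54 without that library. IFITM2 and IFITM3 are near-identical copies, and how reads were divided between them was not given in the sources used here, so their separate values are uncertain.

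IFITM1 was listed at 157, 160.1 and 160.4 FPKM in D152V rescue, 92.8, 74.6 and 102 in MYB-WT rescue, 301, 291 and 248 in knockdown, and 171, 155 and 188 in siRNA control libraries. Knockdown libraries were the highest and MYB-WT rescue libraries the lowest, with no overlap with any other group, while D152V rescue and control overlapped. Relative to control, IFITM1 stood at 93.1% in D152V rescue, 52.4% in MYB-WT rescue and 164% in knockdown cells. The order of the 2 rescue lines was therefore opposite for IFITM1 and for IFITM3 and IFITM2. Between D152V rescue and MYB-WT rescue the log2 changes were 0.83 for IFITM1, -2.10 for IFITM2 and -1.59 for IFITM3. These signs held in every processing alternative, the IFITM1 change ranging between 0.71 and 0.93 and the IFITM3 change between -2.04 and -1.52. The small D152V rescue minus control change of IFITM1, -0.10, ranged between -0.17 and 0. The neighbouring bone-restricted member IFITM5 was at 0 or at most 0.117 FPKM, and IFITM10 stayed at or below 0.316 FPKM. TMEM233, a more distant family member, was higher in knockdown than in control cells (log2 change 1.07, SE 0.22, adjusted p = 0.0173) and lower in D152V rescue than in knockdown cells (log2 change -1.33, SE 0.22, adjusted p = 0.00262). The first of these calls was lost when any 1 control library was left out, with adjusted p up to 0.14 over the alternatives.

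IFI16 was higher in both rescue lines than in the other cells, and highest in the D152V rescue. It was listed at 66.5, 72.1 and 84.3 FPKM in D152V rescue, 24.9, 25.4 and 31.4 in MYB-WT rescue, 15.3, 11.8 and 10.7 in knockdown, and 7.83, 8.44 and 7.56 in siRNA control libraries. No 2 groups overlapped. The means were 74.3 ± 9.14 FPKM in D152V rescue, 27.2 ± 3.63 FPKM in MYB-WT rescue, 12.6 ± 2.37 FPKM in knockdown and 7.94 ± 0.454 FPKM in control cells (SD, n = 3 each). D152V rescue stood at 936%, MYB-WT rescue at 343% and knockdown at 159% of control. Across the processing alternatives the D152V rescue minus control log2 change of 3.07 ranged between 2.97 and 3.2, and the MYB-WT rescue minus control change of 1.65 between 1.55 and 1.76. The knockdown minus control change of 0.59 was 0.46 without MYB_KnockDown replicate 1.

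The adjacent gene AIM2, a PYHIN protein that forms an inflammasome on cytosolic DNA, was at higher levels in both rescue lines. AIM2 was listed at 1.76, 2.21 and 3.37 FPKM in D152V rescue, 2.47, 2.66 and 3.86 in MYB-WT rescue, 0.658, 0.463 and 0.416 in knockdown, and 0.404, 0.384 and 0.338 in siRNA control libraries. Both rescue lines lay above control and knockdown without overlap, by 1.30 in D152V rescue and 1.52 in MYB-WT rescue over control on the log2 scale. AIM2 passed the filter through the rescue libraries alone, so these differences are given with no test. AIM2 did not follow the order of IFI16, since D152V rescue did not exceed MYB-WT rescue (log2 change -0.22). On GRCh38.p14 the IFI16 interval, chr1:158999976-159055151, overlaps the AIM2 interval, chr1:159055051-159147132, at its end, and the use of strand in counting was not given in the sources used here. The other PYHIN genes MNDA and PYHIN1 were at or below 0.184 FPKM in every library.

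ISG15, the ubiquitin-like protein that is conjugated to other proteins after interferon, was called higher in the knockdown than in control cells and in neither rescue line against control. It was listed at 1.58, 3.34 and 2.14 FPKM in D152V rescue, 3.63, 2.61 and 4.75 in MYB-WT rescue, 16.3, 8.05 and 5.62 in knockdown, and 2.89, 2.93 and 3.93 in siRNA control libraries. All 3 knockdown libraries lay above all 9 others. The change was 1.26 on the log2 scale (SE 0.32, adjusted p = 0.0325) for knockdown against control, -1.14 on the log2 scale (SE 0.32, adjusted p = 0.018) for MYB-WT rescue against knockdown and -1.63 on the log2 scale (SE 0.32, adjusted p = 0.00599) for D152V rescue against knockdown, by limma with p-values adjusted by Benjamini and Hochberg's method across 13393 genes. Over all tested genes 11.3% were called in knockdown against control, 37.6% in MYB-WT rescue and 25.1% in D152V rescue against knockdown. Without MYB_KnockDown replicate 1 the knockdown minus control change was 0.87 (adjusted p = 0.0299). The knockdown call did not hold under 6 of 19 alternatives, among them leaving out any 1 control library, with adjusted p up to 0.174. The call in MYB-WT rescue against knockdown was lost with only the 6 libraries compared and without MYB-WT_Rescue replicate 2 (adjusted p up to 0.0836), and that in D152V rescue with only the 6 libraries compared (adjusted p up to 0.0665). Against control, ISG15 was -0.37 in D152V rescue (adjusted p = 0.595) and 0.12 in MYB-WT rescue (adjusted p = 0.889) and passed in neither, where 9.55% of all tested genes were called in D152V rescue and 9.62% in MYB-WT rescue. The comparisons share the knockdown or the control libraries.

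IFI6, a mitochondrial and endoplasmic reticulum protein with antiviral activity, passed the limma test in none of the 6 comparisons, and at an unadjusted p under 0.05 in 1, knockdown against control. IFI6 was listed at 1.61, 2.40 and 4.34 FPKM in D152V rescue, 2.72, 3.57 and 4.34 in MYB-WT rescue, 9.80, 2.83 and 2.42 in knockdown, and 1.10, 1.73 and 2.18 in siRNA control libraries. The highest value was again that of MYB_KnockDown replicate 1, and the MYB-WT rescue and knockdown libraries lay above control without overlap. The knockdown minus control change was 0.99 on the log2 scale (SE 0.40, adjusted p = 0.119), and it was 0.46 (adjusted p = 0.273) without that library. The MYB-WT rescue minus control change was 0.77 on the log2 scale (SE 0.40, adjusted p = 0.279). It passed by limma with only the 6 libraries compared (adjusted p = 0.0253). It also passed without MYB_KnockDown replicate 1 (adjusted p = 0.0363), which enters that comparison only through the shared estimate of spread. The D152V rescue minus control change was 0.46 on the log2 scale (SE 0.40, adjusted p = 0.587). IFIT1, which binds foreign RNA lacking the host cap methylation and is among the most inducible interferon targets, was listed at 0.124, 0.148 and 0.449 FPKM in D152V rescue, 0.0824, 0.0917 and 0.0571 in MYB-WT rescue, 0.266, 0.102 and 0.183 in knockdown, and 0.0936, 0.153 and 0.155 in siRNA control libraries. The MYB-WT rescue libraries were the lowest without overlap, and all values lie below the filter and give no test. Its relatives IFIT2 and IFIT5 were likewise not tested, and IFIT3 did not pass in either rescue against control (log2 change 0.59, adjusted p = 0.221 in D152V rescue and 0.37, adjusted p = 0.463 in MYB-WT rescue).

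The transcription factors IRF1 and IRF9 passed the limma test in none of the 6 comparisons, also at an unadjusted p under 0.05. IRF1, an activator induced by interferon gamma, was listed at 3.12, 3.55 and 9.09 FPKM in D152V rescue, 4.64, 5.07 and 7.59 in MYB-WT rescue, 2.49, 3.04 and 4.47 in knockdown, and 4.04, 3.46 and 5.69 in siRNA control libraries. The groups overlapped except MYB-WT rescue and knockdown, where the change was 0.64 on the log2 scale (SE 0.32, adjusted p = 0.137). With the replicate number as a block that change had an adjusted p of 0.019, although the numbers did not pair those groups. IRF9, the DNA-binding subunit of the type I interferon complex, was listed at 7.49, 5.58 and 7.70 FPKM in D152V rescue, 5.51, 6.27 and 4.94 in MYB-WT rescue, 13.7, 4.34 and 3.65 in knockdown, and 4.67, 4.61 and 3.81 in siRNA control libraries. MYB_KnockDown replicate 1 was again the highest library, and both rescue lines lay above control without overlap. The change against control was 0.56 on the log2 scale (SE 0.34, adjusted p = 0.4) in D152V rescue and 0.29 on the log2 scale (SE 0.34, adjusted p = 0.685) in MYB-WT rescue. The D152V rescue change against control passed with only the 6 libraries compared. It also passed without MYB_KnockDown replicate 1 (adjusted p = 0.011), as did D152V rescue against knockdown (log2 change 0.66, adjusted p = 0.00738). With all libraries the D152V rescue minus knockdown change was 0.14.

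Beyond the members, 81 interferon-stimulated genes on a list without IFITM1, IFITM2, IFITM3 and IFI16 were matched, and 52 were tested. Of the others, 4 were at 0 in every library. In D152V rescue against control, 12 of the 52 were called higher and 1 lower, where 4.61% of all tested genes were called higher and 4.94% lower. The median change was 0.46 on the log2 scale, against -0.04 over all tested genes, and 39 genes were not called. That median was 0.30 without D152V_Rescue replicate 3 and 0.25 with no filter. In MYB-WT rescue against control 9 were called higher and 1 lower, with 5.04% higher and 4.58% lower over all tested genes. The median was 0.28 against -0.02, and 42 genes were not called. That median was 0.16 without MYB-WT_Rescue replicate 3, 0.17 with the filter at a mean of 5 FPKM and 0.11 with no filter. EPSTI1, SAMD9L, USP18 and TNFSF10 passed the filter through the rescue libraries alone, and without them 9 were higher in D152V rescue and 6 in MYB-WT rescue against control. Those counts still hold SAMD9 and IFIH1, which would not have passed the filter without the rescue libraries. Without MYB_KnockDown replicate 1 the counts were 21 higher and 2 lower in D152V rescue (11.2% and 16.4% of all genes) and 17 higher and 6 lower in MYB-WT rescue (13.8% and 15.9% of all genes). Without siRNA_Control replicate 1 MYB-WT rescue had 4 higher, and without D152V_Rescue replicate 3 or MYB-WT_Rescue replicate 3 D152V rescue had 2 lower. With a mean FPKM of at least 5 as the filter, the higher counts were 6 in D152V rescue and 4 in MYB-WT rescue. Both comparisons share the control libraries.

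Among the genes called higher, SAMD9, a restriction factor of poxviruses, was listed at 2.53, 3.54 and 5.81 FPKM in D152V rescue, 6.38, 6.91 and 8.38 in MYB-WT rescue, 0.423, 0.665 and 1.28 in knockdown, and 0.865, 0.794 and 1.28 in siRNA control libraries. Both rescue lines lay above control and knockdown without overlap, with log2 changes against control of 1.28 in D152V rescue and 2.06 in MYB-WT rescue. SAMD9 reached 1 FPKM in 1 knockdown and 1 control library besides the rescue libraries. It would not have passed the filter without the rescue libraries, so no test is given. DDX60L, a helicase-like antiviral protein, changed by 1.61 on the log2 scale (SE 0.24, adjusted p = 0.00163) in D152V rescue and 1.91 on the log2 scale (SE 0.24, adjusted p = 0.000665) in MYB-WT rescue against control. SP110, a nuclear body protein, changed by 1.35 on the log2 scale (SE 0.20, adjusted p = 0.00201) in MYB-WT rescue. The DDX60L and SP110 calls held in every alternative. IFIH1, the sensor of long double-stranded RNA also called MDA5, changed by 1.33 on the log2 scale in D152V rescue. IFIH1 reached 1 FPKM in the rescue libraries and in 1 knockdown library, so no test is given for it either. SAMD9 and IFIH1 remain in the counts above. ISG20, an RNA exonuclease, was called in D152V rescue (log2 change 1.49, SE 0.36, adjusted p = 0.0227), but lost the call in 6 alternatives, with adjusted p up to 0.105. The single gene called lower in each rescue was CXCL11, a chemokine of the CXCR3 receptor. CXCL11 was listed at 0.349, 0.366 and 0.997 FPKM in D152V rescue, 0, 0 and 0 in MYB-WT rescue, 2.38, 2.45 and 3.06 in knockdown, and 2.44, 1.75 and 3.29 in siRNA control libraries. It passed the filter through the knockdown and control libraries alone, so no test is given. All MYB-WT rescue libraries were listed at 0, so no fold is given there, and D152V rescue lay below control without overlap, with a log2 difference of -1.15.

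**Figure D2:**
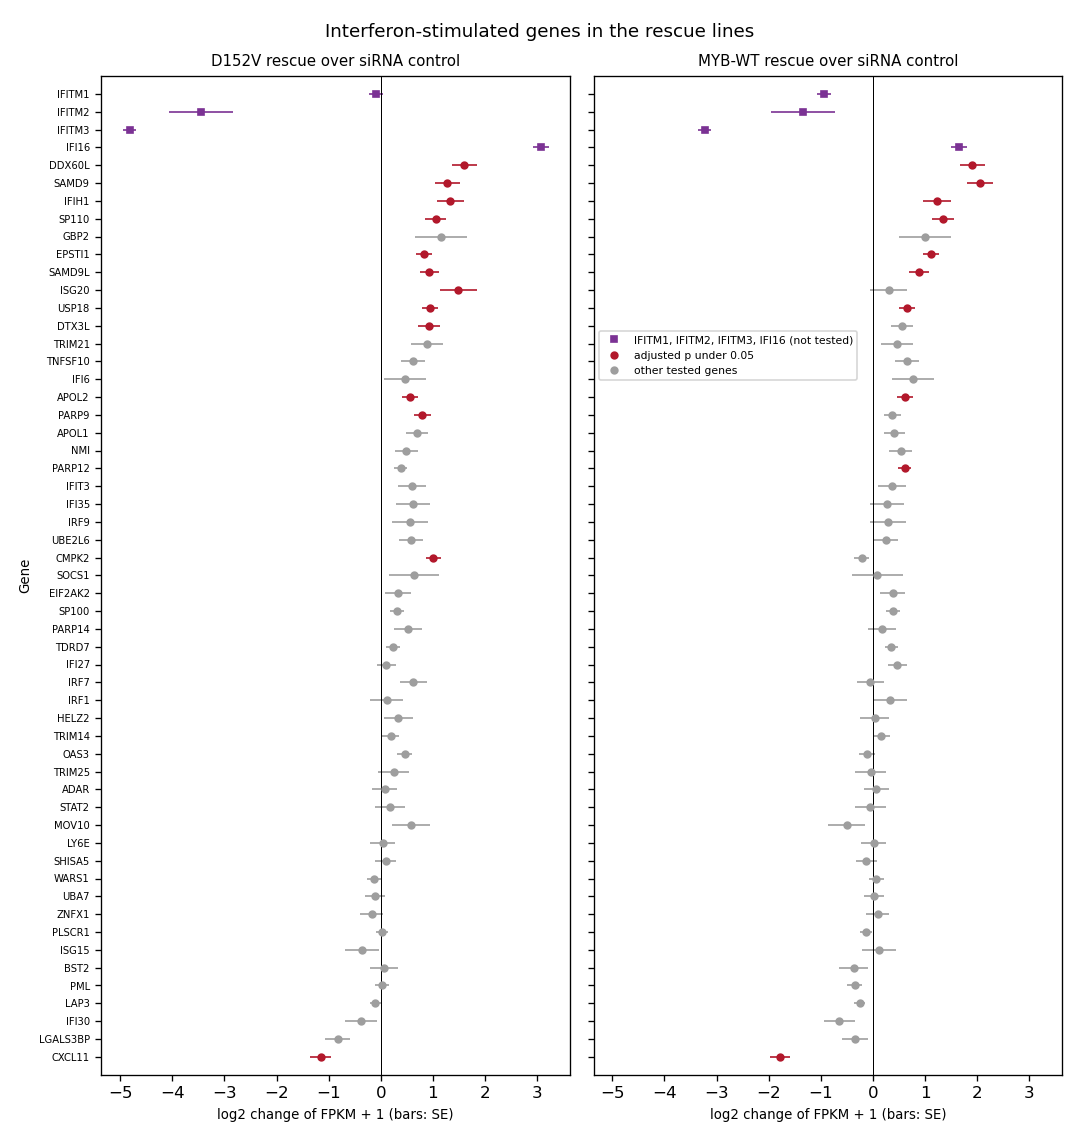
Log2 change of FPKM + 1 against siRNA control for IFITM1, IFITM2, IFITM3 and IFI16 (squares, not tested) and for 51 other tested interferon-stimulated genes, in D152V rescue (left) and MYB-WT rescue (right). Points are limma estimates and bars their SE. Of the 51 genes, 12 were called higher and 1 lower in D152V rescue, where 4.61% of all tested genes were higher and 4.94% lower. In MYB-WT rescue 9 were higher and 1 lower, where 5.04% and 4.58% of all were. The higher calls include genes that passed the filter through the rescue libraries alone. CXCL11, the gene called lower, passed through the knockdown and control libraries alone. The genes drawn as squares were chosen by their changes in these libraries, so their distance from 0 beside the 51 genes is no test. The CXCL11 point in MYB-WT rescue, where it was listed at 0, depends on the added 1.

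Between the 2 rescue lines, 2 of the 52 interferon-stimulated genes were called higher in D152V rescue and none lower by limma, where 5.96% of all tested genes were higher and 6.19% lower. At an unadjusted p under 0.05 there were 8 higher and 1 lower. With the replicate number as a block, which pairs these 2 groups, the counts were 4 higher and 1 lower, and without MYB_KnockDown replicate 1 they were 10 higher and 2 lower (13.6% and 17.8% of all genes). The higher count was 1 without D152V_Rescue replicate 2 or 3 or any single MYB-WT rescue library, and the lower count was 1 without D152V_Rescue replicate 3 or MYB_KnockDown replicate 3. CMPK2, a mitochondrial nucleotide kinase, was listed at 16.7, 16.4 and 21.0 FPKM in D152V rescue, 7.40, 7.28 and 6.69 in MYB-WT rescue, 15.1, 14.6 and 19.2 in knockdown, and 7.45, 9.23 and 8.67 in siRNA control libraries. D152V rescue and knockdown lay above MYB-WT rescue and control without overlap. The D152V rescue minus MYB-WT rescue change was 1.22 on the log2 scale (SE 0.14, adjusted p = 0.000206) and held in every alternative. OAS3, which makes 2′-5′ oligoadenylates that activate RNase L, changed by 0.57 on the log2 scale (SE 0.15, adjusted p = 0.0274) and lost the call in 5 alternatives, with adjusted p up to 0.108.

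In knockdown against control, 2 of the 52 genes were called higher and 1 lower, where 3.94% of all tested genes were higher and 7.38% lower. The 2 were ISG15 and CMPK2 (log2 change 0.87, SE 0.14, adjusted p = 0.00738), the CMPK2 call being lost with only the 6 libraries compared (adjusted p = 0.138), and the 1 was EIF2AK2, the kinase PKR (log2 change -0.87, SE 0.25, adjusted p = 0.0463). EIF2AK2 lost the call in 13 alternatives, with adjusted p up to 0.215. Against knockdown, 10 genes were higher and 4 lower in D152V rescue, where 13% of all genes were higher and 12% lower, and 15 were higher and 8 lower in MYB-WT rescue, where 20.6% and 16.9% were. SAMD9 (log2 change 1.45, with no test, as above) and SP110 (log2 change 1.40, SE 0.20, adjusted p = 0.00123) led the higher genes in D152V rescue. Without MYB_KnockDown replicate 1 the higher count in D152V rescue was 16 (16.6% of all genes) and the lower count in knockdown against control was 4 (12.9%). The higher count in knockdown against control was 7 without MYB_KnockDown replicate 2, 6 without replicate 3, and 1 without MYB-WT_Rescue replicate 1 or any single control library. The lower count was 0 without any single library of the other groups, 3 without MYB_KnockDown replicate 2 and 2 without replicate 3. Without MYB-WT_Rescue replicate 2 or without replicate 3, the higher count in MYB-WT rescue against knockdown was 8, and the lower count was 4 without replicate 2. Without D152V_Rescue replicate 1 or 2 the lower count in D152V rescue against knockdown was 2.

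No interferon gene was measured at an appreciable level. Of 22 matched interferon ligands 17 were at 0 in every library, the highest single value was 0.115 FPKM, and none was tested. Depth is unknown for these values, so low levels cannot be bounded. Of 12 receptor, JAK and STAT genes 11 were tested. IFNGR1, the ligand-binding chain of the interferon gamma receptor, was lower in D152V rescue and was the single gene of the 11 called against control. That is 9.09% of the list, near the 9.55% of all tested genes called in D152V rescue against control. IFNGR1 was listed at 5.65, 6.12 and 7.58 FPKM in D152V rescue, 9.72, 10.4 and 9.90 in MYB-WT rescue, 9.03, 14.1 and 14.7 in knockdown, and 12, 12.4 and 13 in siRNA control libraries. D152V rescue lay below every other library, with a change of -0.86 on the log2 scale (SE 0.17, adjusted p = 0.0079) against control that held in every alternative. Against MYB-WT rescue the change was -0.57 on the log2 scale (SE 0.17, adjusted p = 0.0495), a call lost in 13 alternatives, with adjusted p up to 0.171. Its partner IFNGR2 was not called against control in D152V rescue (log2 change -0.28, adjusted p = 0.183). For the type I receptor chains against control in D152V rescue, IFNAR1 had 0.20 (adjusted p = 0.486) and IFNAR2 0.10 (adjusted p = 0.805).

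Of the 11 tested receptor, JAK and STAT genes, 2 were lower in knockdown against control, where 11.3% of all tested genes were called. In MYB-WT rescue against knockdown 2 were higher, where 37.6% of all were called. In D152V rescue against knockdown 1 was higher and 1 lower, where 25.1% of all were called. In knockdown against control, JAK2 (log2 change -0.65, SE 0.15, adjusted p = 0.0227) and STAT3 (log2 change -0.54, SE 0.13, adjusted p = 0.0246) were lower, and each call was lost in 5 alternatives with adjusted p up to 0.171 for JAK2 and 0.16 for STAT3. STAT3, which carries interleukin signals, was higher in D152V rescue than in knockdown (log2 change 0.71, SE 0.13, adjusted p = 0.00372), a call lost with only the 6 libraries compared (adjusted p = 0.0544). STAT2 was not called in D152V rescue (log2 change 0.17, adjusted p = 0.819) or MYB-WT rescue (-0.05, adjusted p = 0.951) against control. Of 12 genes on the interferon regulatory factor list 8 were tested. Against control none was called in D152V rescue by limma (2 higher and 1 lower at an unadjusted p under 0.05), and 1 was called in MYB-WT rescue, the repressor IRF2 (log2 change 0.59, SE 0.14, adjusted p = 0.0201). Over all tested genes 9.55% and 9.62% were called in those comparisons, so these counts of 8 genes lie near the general share. IRF2 was also higher in MYB-WT rescue than in knockdown (log2 change 0.81, SE 0.14, adjusted p = 0.00155), a call that held in every alternative, whereas the call against control was lost in 6 with adjusted p up to 0.0868. IRF7, the amplifier of type I interferon transcription, was lower in MYB-WT rescue than in knockdown (log2 change -0.73, SE 0.26, adjusted p = 0.0431) and lost the call in 14 of 19 alternatives, with adjusted p up to 0.136.

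All 9 genes on the list of feedback inhibitors of interferon signalling were tested, ISG15 among them. USP18, which removes ISG15 and blocks the type I receptor, was listed at 1.17, 1.45 and 1.51 FPKM in D152V rescue, 0.690, 0.891 and 1.27 in MYB-WT rescue, 0.485, 0.281 and 0.602 in knockdown, and 0.280, 0.160 and 0.268 in siRNA control libraries. Both rescue lines lay above knockdown and control without overlap, by 0.94 in D152V rescue and 0.65 in MYB-WT rescue over control on the log2 scale. USP18 passed the filter through the rescue libraries alone, so no test is given. PTPN6, the phosphatase SHP-1, passed the filter through the knockdown and control libraries alone, and its MYB-WT rescue minus knockdown difference of -1.69 is given with no test. SOCS3, an inhibitor of JAK signalling, was listed at 11.8, 10.3 and 3.44 FPKM in D152V rescue, 2.81, 2.31 and 1.73 in MYB-WT rescue, 5.53, 6.73 and 3.36 in knockdown, and 6.78, 5.50 and 3.46 in siRNA control libraries. It was called higher in D152V rescue than in MYB-WT rescue (log2 change 1.41, SE 0.38, adjusted p = 0.031) and lost the call in 6 alternatives with adjusted p up to 0.126. PIAS1, an inhibitor of STAT signalling, was lower in knockdown than in control (log2 change -0.77, SE 0.16, adjusted p = 0.018) and higher in D152V rescue than in knockdown (log2 change 0.91, SE 0.16, adjusted p = 0.00373). The first call was lost in 3 alternatives, among them without siRNA_Control replicate 1 or 2, with adjusted p up to 0.167. In all, 4 of the 9 were called higher and 2 lower in D152V rescue against knockdown, where 13% of all tested genes were higher and 12% lower, and 1 was higher and none lower against control by limma, USP18 being that gene (2 higher and 1 lower at an unadjusted p under 0.05), where 4.61% of all were higher and 4.94% lower. Both counts include USP18, and the lower count against knockdown includes PTPN6.

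**Figure D3:**
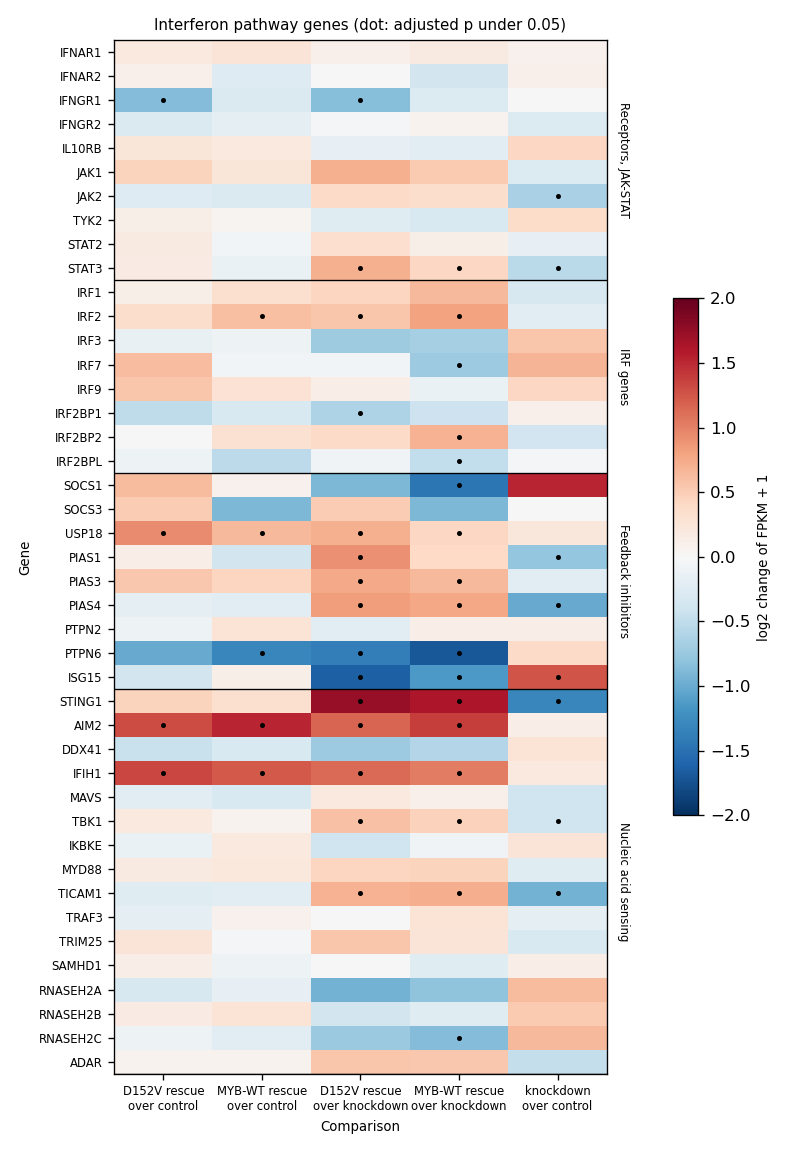
Log2 changes of FPKM + 1 for 43 tested genes of interferon receptors and JAK-STAT signalling, the IRF list, feedback inhibitors and nucleic acid sensing (rows) in 5 comparisons (columns), with colour limits at -2 and 2. Dots mark limma adjusted p under 0.05. Dots are few in the columns of rescue over control, where IFNGR1 is lower in D152V rescue. AIM2, IFIH1 and USP18 have dots in both rescues. AIM2 and USP18 passed the filter through the rescue libraries alone, and IFIH1 through those and 1 knockdown library.

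Of 28 genes of nucleic acid sensing 19 were tested, 18 without IFI16. Against control 2 of the 18 were called higher in each rescue line, AIM2 and IFIH1. AIM2 passed the filter through the rescue libraries alone, and IFIH1 through those and 1 knockdown library. None was lower by limma (none in D152V rescue and 1 in MYB-WT rescue at an unadjusted p under 0.05). Over all tested genes 4.61% were higher and 4.94% lower in D152V rescue, and 5.04% higher and 4.58% lower in MYB-WT rescue. STING1, the adaptor downstream of cyclic GMP-AMP and of DNA sensing that includes IFI16, was listed at 38.9, 41.7 and 56.4 FPKM in D152V rescue, 45.1, 35.7 and 44.5 in MYB-WT rescue, 6.38, 15 and 21.3 in knockdown, and 29.0, 31.4 and 39.4 in siRNA control libraries. It was lower in knockdown than in control (log2 change -1.30, SE 0.32, adjusted p = 0.03) and higher in D152V rescue (log2 change 1.74, SE 0.32, adjusted p = 0.00447) and MYB-WT rescue (log2 change 1.62, SE 0.32, adjusted p = 0.00344) than in knockdown. The first call was lost in 5 alternatives with adjusted p up to 0.188, and without MYB_KnockDown replicate 1 the change was -0.85 (adjusted p = 0.0109). With only the 6 libraries compared the D152V rescue call was lost (adjusted p = 0.064). TICAM1, the adaptor of TLR3, was likewise lower in knockdown than in control (log2 change -0.94, SE 0.14, adjusted p = 0.00617), and higher in D152V rescue than in knockdown (log2 change 0.70, SE 0.14, adjusted p = 0.00701). Both TICAM1 calls were lost with only the 6 libraries compared (adjusted p up to 0.127).

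Of the genes beside the IFITM cluster, 1 was called lower in each rescue line against control, a share near that of all tested genes. Against knockdown the share called lower was above that of all tested genes in both rescue lines. The cluster spans IFITM2, IFITM1 and IFITM3 at chr11:307816-320860 on GRCh38.p14. Of 21 listed neighbours on that chromosome arm 17 were tested, and against control 1 was lower in D152V rescue and 1 in MYB-WT rescue, ANO9 in both. That is 5.88% of the neighbours, where 4.94% of all tested genes were lower in D152V rescue and 4.58% in MYB-WT rescue. The ANO9 changes were -0.60 on the log2 scale (SE 0.17, adjusted p = 0.0432) in D152V rescue, lost in 13 alternatives with adjusted p up to 0.161, and -0.63 on the log2 scale (SE 0.17, adjusted p = 0.034) in MYB-WT rescue, lost in 6 with adjusted p up to 0.124. The nearest tested gene before IFITM2, PGGHG, was listed at 25.4, 21.9 and 23.5 FPKM in D152V rescue, 25.1, 12.2 and 15.2 in MYB-WT rescue, 29.6, 24.6 and 22.9 in knockdown, and 26.6, 19.8 and 26.0 in siRNA control libraries. Its groups overlapped, with log2 changes against control of -0.02 in D152V rescue (adjusted p = 0.98) and -0.49 in MYB-WT rescue (adjusted p = 0.209). The nearest tested gene after IFITM3, B4GALNT4, was listed at 2.19, 3.43 and 2.31 FPKM in D152V rescue, 1.57, 2.16 and 2.38 in MYB-WT rescue, 14.7, 5.61 and 4.27 in knockdown, and 7.97, 3.81 and 5.32 in siRNA control libraries. Its log2 changes against control were -0.85 in D152V rescue (adjusted p = 0.187) and -1.10 in MYB-WT rescue (adjusted p = 0.0794), and neither passed. Against knockdown 4 neighbours (23.5%) were lower in D152V rescue, where 12% of all tested genes were. In MYB-WT rescue 7 (41.2%) were lower and 1 (5.88%) higher, where 16.9% and 20.6% of all were. Between the rescue lines PKP3, a desmosome plakophilin, was higher (log2 change 0.73, SE 0.20, adjusted p = 0.0383) and BET1L, a Golgi SNARE, lower (log2 change -0.47, SE 0.11, adjusted p = 0.0189) in D152V rescue. The PKP3 call was lost in 9 alternatives with adjusted p up to 0.138, and the BET1L call in 5 with adjusted p up to 0.0867.

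Antigen presentation by MHC class I is another group of interferon targets, and 13 of 18 listed genes were tested. Against knockdown 2 of the 13 were called higher and 4 lower in MYB-WT rescue, where 20.6% of all tested genes were higher and 16.9% lower. In D152V rescue against knockdown 1 was higher and 3 lower, where 13% and 12% of all were. For knockdown against control 1 was higher and 1 lower, where 3.94% and 7.38% of all were. In MYB-WT rescue against control TAP2 (log2 change 0.72, SE 0.11, adjusted p = 0.00282) and TAP1 (log2 change 0.67, SE 0.16, adjusted p = 0.0205), the peptide transporter, were higher and B2M, the light chain of class I, was lower (log2 change -1.03, SE 0.19, adjusted p = 0.00534). These are 2 higher and 1 lower of 13, where 5.04% of all tested genes were higher and 4.58% lower. The TAP2 and B2M calls held in every alternative, and the TAP1 call was lost in 5 with adjusted p up to 0.0853. B2M was listed at 516, 656 and 701 FPKM in D152V rescue, 390.1, 393 and 446 in MYB-WT rescue, 1395, 942 and 948 in knockdown, and 738, 894 and 877 in siRNA control libraries. In D152V rescue against control none was higher by limma, also at an unadjusted p under 0.05, and 1 was lower, where 4.61% of all were higher and 4.94% lower. That gene was PSMB8, an immunoproteasome subunit (log2 change -0.55, with no test, as below). TAP1 (log2 change -0.53, SE 0.16, adjusted p = 0.0484) and TAP2 (log2 change -0.64, SE 0.11, adjusted p = 0.00373) were lower in D152V rescue than in MYB-WT rescue. The PSMB8 difference there was -0.45. The TAP2 call held in every alternative, while the TAP1 call was lost in 14 with adjusted p up to 0.154. PSMB8 was listed at 0.154, 0.214 and 0.156 FPKM in D152V rescue, 0.786, 0.496 and 0.549 in MYB-WT rescue, 1.97, 1.60 and 1.78 in knockdown, and 0.693, 0.703 and 0.766 in siRNA control libraries. It passed the filter through the knockdown libraries alone, so no test is given for PSMB8, which remains in the counts of this list.

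As a description over the 12 libraries, which fall into 4 groups and so share those group levels, log2(FPKM + 1) of IFITM3 correlated with that of IFI16 at r of -0.948. The r of IFITM3 was 0.889 with IFITM2, 0.589 with IFITM1 and -0.27 with IRF9. IFITM1, IFITM2, IFITM3 and IFI16 were chosen by their changes in these same libraries. The r values among those genes therefore follow from that choice and test nothing. Among 8758 genes with a mean FPKM of at least 5, those most like IFITM3 included CDCA5 (r of 0.974), BZW2 (0.973), TMEM87A (0.973) and CALB1 (0.968). CALB1, a calcium-binding protein, averaged 7.53 FPKM in D152V rescue, 11.8 in MYB-WT rescue, 68.3 in knockdown and 91.0 in control cells. The genes most like IFI16 included TBC1D1 (0.943), PAK1 (0.943), HEY1 (0.941) and PTPRR (0.936). PAK1, a kinase activated by small GTPases, averaged 15.3 FPKM in D152V rescue, 6.5 in MYB-WT rescue, 1.40 in knockdown and 2.0 in control cells.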

How the data were processed

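RNA of 12 K-562 libraries was sequenced as 125-bp paired reads, and groups and replicate numbers were read from the sample titles. The values the authors deposited were FPKM, a unit that already corrects for transcript length and library size. Per the submitters' processing notes, the reads were handled with Cufflinks 2.2.1, TopHat2 2.0.13, Trimmomatic 0.33 and bcl2fastq 2.17.1.14, and the build was GRCh38. Annotation and strand use were not given in the sources used here. Whole reads could not be recovered (a median of 2.5% of low-value ratios between libraries lay within 2% of the value whole reads would give), so depth is unknown and no count model was used. No column belonged to other samples and no 2 columns were identical.

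The 13393 genes reaching 1 FPKM in 3 or more of the 12 libraries were kept. Values were analysed as log2(FPKM + 1), which understates changes of low genes, in 1 limma 3.58.1 fit (R 4.3.3) with 4 group means, 8 residual degrees of freedom and a trended prior variance. Each of 6 contrasts was called at a Benjamini-Hochberg adjusted p under 0.05 over all tested genes. The fit shares 1 estimate of spread, so each library can move every comparison. It was checked on simulated data. Sequences and coordinates came from RefSeq tables on GRCh38.p14. Tables and figures used Python 3.11.15, pandas 2.3.3 and matplotlib 3.10.9.

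The members and the 16 gene lists were chosen with earlier results of these data known. Genes named from a list were its called members, at most the 4 largest changes in each direction per comparison, with receptors, JAK-STAT and IRF genes and locus neighbours named whether called or not. Genes most like IFITM3 and IFI16 were taken from the 5 with the highest r, and some genes the rules name are not reported here. IFIT2, IFIT3, IFIT5, MNDA, PYHIN1, IFITM5 and IFITM10 were named as relatives of members after their values were seen. Same-numbered libraries deviated together most clearly between the rescue lines (r between 0.153 and 0.233, against -0.22 to 0.062 for other numbers). Between knockdown and control they also did so, more weakly (0.038 to 0.132, against -0.146 to 0.031 for other numbers). The numbers were taken to pair the rescue lines alone. Alternatives were another pseudocount, filters, normalizations, a length correction, a replicate block, fits of 6 libraries, a stricter threshold and leaving out each library.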

Additional observations from a re-analysis of the deposited data

Results flagged for a closer look

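The rescue effect, taken against the knockdown, differed between the D152V and wild-type lines for 12 genes named here, by the limma contrast of D152V rescue minus MYB-WT rescue with adjustment over all tested genes. The rescue lines are separate stable lines, so this difference and other differences between the lines cannot be told apart. In this contrast 12.1% of all tested genes were called, and list genes were named because they were called. CD3G differed by 1.53 on the log2 scale, with rescue effects of 2.64 in the D152V line and 1.1 in the wild-type line. SOCS3 differed by 1.41, with rescue effects of 0.51 in the D152V line and -0.89 in the wild-type line. CMPK2 differed by 1.22, with 0.14 in the D152V line and -1.08 in the wild-type line. PKP3 differed by 0.73 and OAS3 by 0.57, both higher in D152V rescue. LYZ differed by -1.33, TAP2 by -0.64, IFNGR1 by -0.57, TAP1 by -0.53, BET1L by -0.47, PSMB8 by -0.45 and MYB by -0.44, all lower in D152V rescue. The adjusted p was 0.0495 for IFNGR1, 0.0494 for MYB and 0.0484 for TAP1, close to the threshold. The call was lost in 17 of 20 alternatives for MYB, 14 of 19 for TAP1 and 13 of 20 for IFNGR1. It was lost in 9 of 20 for PKP3, 6 of 20 for SOCS3, 5 of 20 for BET1L and 5 of 19 for OAS3. The CMPK2 and TAP2 calls held in every alternative, and CD3G and LYZ were not run through the alternatives. PSMB8, among the 12, reached 1 FPKM in the knockdown libraries alone, so its difference is given with no test.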

How the results depend on the processing

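Depth is unknown, so no counting error can be attached to low FPKM values. IFITM3, IFITM2 and IFI16 kept the direction of each rescue against control under every alternative run, while the knockdown minus control change of IFITM3, 0.22, ranged between -0.11 and 0.3. Counts of interferon-stimulated genes moved more, and the cause was not tested unless fewer genes or libraries entered by construction.

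Counts are of limma calls, higher first, then lower. Where a lower count is 0, between 0 and 6 genes were lower at an unadjusted p under 0.05. D152V rescue against control had 12 and 1. With the filter at a mean of 5 FPKM they were 6 and 0, with only the 6 libraries compared 22 and 2, with quantile normalization the lower count was 2, and without single libraries they ranged between 9 and 21 and between 1 and 2. MYB-WT rescue against control had 9 and 1. With the filter at a mean of 5 FPKM they were 4 and 0, with 6 libraries 17 and 6, at an adjusted p under 0.01 the higher count was 4, and without single libraries they ranged between 4 and 17 and between 1 and 6. D152V rescue against MYB-WT rescue had 2 and 0. They were 4 and 1 with no filter, 5 and 1 with quantile normalization and 9 and 1 with 6 libraries, the higher count was 1 with the filter at a mean of 5 FPKM and at an adjusted p under 0.01, and without single libraries they ranged between 1 and 10 and between 0 and 2. D152V rescue against knockdown had 10 and 4. They were 5 and 1 with the filter at a mean of 5 FPKM and 4 and 1 with 6 libraries, the lower count was 2 at an adjusted p under 0.01, and without single libraries they ranged between 9 and 16 and between 2 and 4. MYB-WT rescue against knockdown had 15 and 8. They were 9 and 5 with the filter at a mean of 5 FPKM, 7 and 2 with 6 libraries and 6 and 3 at an adjusted p under 0.01, and without single libraries they ranged between 8 and 16 and between 4 and 9. Knockdown against control had 2 and 1. They were 1 and 0 with no filter, 5 and 2 with quantile normalization, 4 and 0 with the length trend removed, 0 and 0 by limma with 6 libraries (8 and 2 at an unadjusted p under 0.05) and 1 and 0 at an adjusted p under 0.01, the lower count was 0 with median-ratio size factors, and without single libraries they ranged between 1 and 7 and between 0 and 4. Leaving out the 4 genes that passed through the rescue libraries alone was chosen after seeing the data and kept every count within 1.5 times. SAMD9 and IFIH1 were not left out there.

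With the replicate block, the counts were 4 and 1 in D152V rescue against MYB-WT rescue, the groups taken as paired. In knockdown against control, where same-numbered libraries deviated together more weakly, the block gave 5 and 2. In D152V rescue against control, not taken as paired, it gave a lower count of 2.

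Some log2 changes of members that passed no test changed sign, and none passed where it did. For IFI6 in MYB-WT rescue against knockdown the value was 0.211 with the length trend removed, and it ranged between -0.517 and 0.313 without single libraries, the highest without MYB_KnockDown replicate 1. For IFI6 in D152V rescue against knockdown it ranged between -0.83 and 0.00022, the highest without the same library. For IRF9 in MYB-WT rescue against knockdown it was 0.123 with the length trend removed, and it ranged between -0.438 and 0.394 without single libraries. IRF9 ranged between -0.101 and 0.731 in knockdown against control and between -0.174 and 0.658 in D152V rescue against knockdown, with -0.074 there without MYB_KnockDown replicate 2. ISG15 in MYB-WT rescue against control ranged between -0.047 and 0.289. IRF1 ranged between -0.297 and 0.349 in D152V rescue against control, with -0.016 without siRNA_Control replicate 2, and between -0.618 and 0.027 in D152V rescue against MYB-WT rescue.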
